A study of Homo sapiens with 6 samples.

Results

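The genes described here are 37 factors of nucleotide excision repair, mismatch repair and translesion synthesis, taken by symbol from the 62753 genes of the deposited table. Each of the 37 symbols matched 1 row. Messenger RNA was measured in cells labelled HepG2, an established human liver cancer line. In the 3 sgPARP1 libraries (genotype label PARP1 KO) the PARP1 gene had been targeted with CRISPR-Cas9, and the 3 WT libraries are the unedited cells. The labels do not say whether the edited cells are 1 clone or a pool, nor whether the libraries of a group are separate cultures, so p-values measure only the library-to-library spread, and that spread may be technical. The comparison addresses how expression differs once PARP1, which binds DNA breaks and attaches ADP-ribose chains to proteins, is knocked out.

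These pathways deal with damage that distorts or blocks the DNA template. In nucleotide excision repair a lesion is found either by scanning the whole genome or because it stalls RNA polymerase II. The general transcription factor TFIIH then opens the helix, XPA and its partners verify the lesion, and a pair of nucleases cut out the damaged strand. Mismatch repair removes bases that replication paired wrongly. In translesion synthesis, ubiquitin placed on the sliding clamp PCNA brings in polymerases that can copy past a lesion. Inherited loss of these genes underlies xeroderma pigmentosum, Cockayne syndrome, trichothiodystrophy and Lynch syndrome.

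PARP1 itself (ENSG00000143799) stood at 4.31, 4.23 and 4.39 FPKM in the sgPARP1 libraries, against 31.8, 31.5 and 31.5 FPKM in WT (limma, Benjamini-Hochberg adjusted p = 7.3e-07), which follows the labels. FPKM is a read count scaled by gene length and by the library total. The libraries held 15383400 to 17197118 reads in genes in sgPARP1 and 14842498 to 17305129 in WT, worked out from the deposited values. Of 7 hepatocyte markers, ALB, AFP, APOB, TTR, SERPINA1 and FGB were listed at 0 in all 6 libraries, and the 7 together summed to at most 0.106 FPKM in an sgPARP1 library and to 0 in WT. The labelled cell type is therefore not borne out by its defining markers in this table, although a listed 0 shows only that no read was counted for a gene. Markers of leukocytes (5 genes) summed to 0.118 to 0.352 FPKM in sgPARP1 and 0.105 to 0.488 FPKM in WT, and those of endothelium (4 genes) to 0.212 to 0.267 FPKM in sgPARP1 and 0.274 to 0.386 FPKM in WT. The 5 fibroblast markers summed to 18.3 to 20.8 FPKM in sgPARP1 and 18.1 to 19.9 FPKM in WT, mostly COL1A1, with COL1A2 listed at 0. Of the 3 that were tested, DCN fell (limma, log2 fold change −0.67, adjusted p = 0.00877), while PDGFRB, at 0.28, and COL1A1, at 0.07, did not pass (adjusted p = 0.1105 and 0.537).

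None of the repair genes passed the test. Of the 37, 33 averaged 0.5 FPKM or more in the 6 libraries and were tested as log2(FPKM + 1), a scale on which differences of low genes come out too small. No gene was called higher and none lower (limma, Benjamini-Hochberg adjusted p under 0.05 over all 13167 genes tested), whereas 7.96% of all genes tested were called, 3.52% higher and 4.44% lower. Without adjustment, 2 had p under 0.05, XPA and RAD18, both higher, which is 6.06% of the 33 against 24.4% of all genes tested (12.1% higher and 12.3% lower). Voom over genes averaging 20 reads or more, where low genes are not damped, gave such a p to 5 of 34 members (14.7%), of which XPA, RAD18 and REV3L lay higher and UVSSA and ERCC6 lower. Of all genes in that test, 27.5% had such a p, 12.6% higher and 14.9% lower. A test on the reads, voom on the same genes, called none of the 33 either, where it called 11.9% of all genes, 4.9% higher and 6.96% lower. The median log2 fold change, sgPARP1 over WT, was 0.01 over the 33 and 0.00 over all genes tested (0.0149 and 0.00292), and the median absolute log2 fold change was 0.070 and 0.099. Of the 33, 18 lay above 0 and 15 below.

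The data do set bounds. For 29 of the 33 the 95% interval of the log2 fold change of FPKM + 1 lay within 0.5 in either direction. The exceptions were XPA, whose interval ran from 0.08 to 0.56, and UBE2A, GTF2H1 and CDK7, which varied so widely between libraries of a group that their intervals reached beyond 0.9. With voom, 28 of 34 intervals lay within those bounds, and ERCC5 (−0.58 to 0.19) and PRIMPOL (−0.20 to 0.60) joined the exceptions. The 3 values of sgPARP1 all lay outside those of WT in 7 of the 33 (21.2%), against 31.1% of all genes tested. XPA, RAD18, MSH6 and MNAT1 were the 4 that lay higher (16.1% of all genes tested) and ERCC6, UVSSA and PMS1 the 3 that lay lower (14.9%). With 3 libraries against 3, an exact two-sided permutation test cannot go below p = 0.1.

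**Figure D1:**
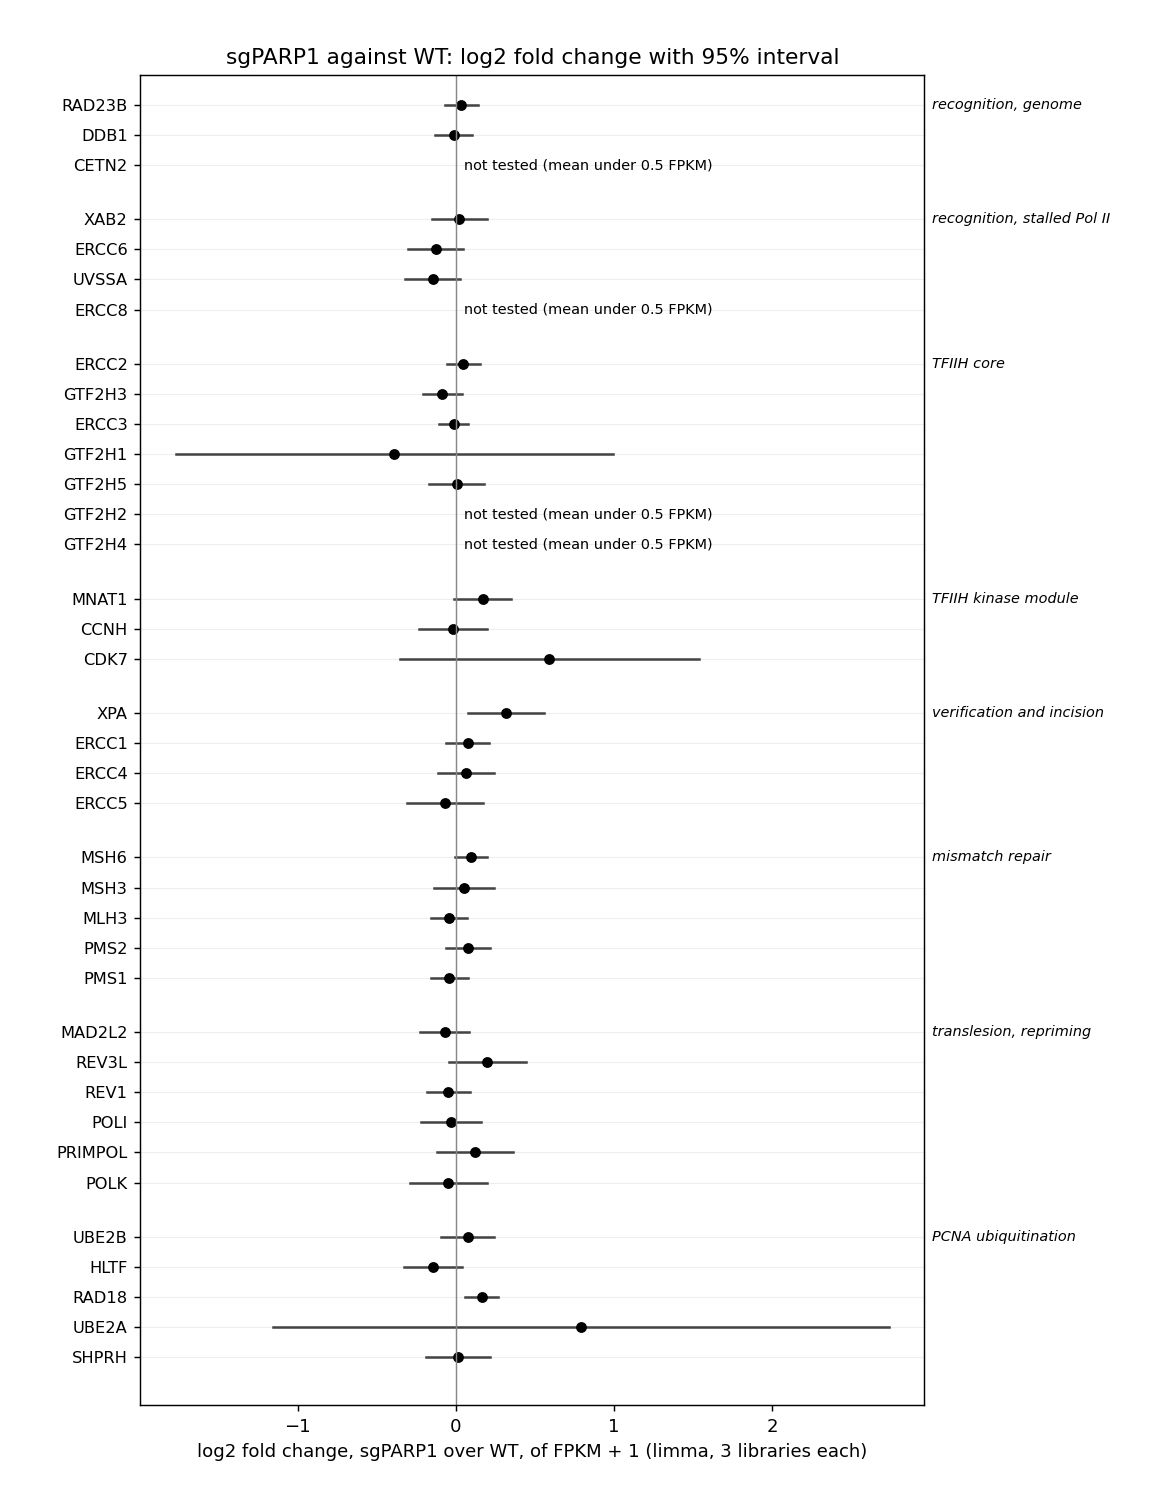
Log2 fold change, sgPARP1 over WT, of FPKM + 1 for each tested repair gene, grouped by role, with limma's 95% interval (3 libraries in each group). Most points lie close to 0 with short intervals, while UBE2A, GTF2H1 and CDK7 have intervals that reach beyond 0.9, and CETN2, ERCC8, GTF2H2 and GTF2H4 were not tested.

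XPA and RAD18 had the smallest p-values of the members in the limma test, and ERCC6 and UVSSA lay lower in every sgPARP1 library. A promoter window of each is printed to show which common promoter elements it holds. Each is the first window listed for the gene in RefSeq (GRCh38.p14), 250 bases before to 50 after the start, read 5′ to 3′ on the gene's strand. ERCC6 has 2 windows listed and the others 1. Capitals mark the GC box (GGGCGG) and the palindromic box of the factor NRF1, the only run of 10 capitals, both searched on both strands. The boxes do not overlap each other here.
XPA: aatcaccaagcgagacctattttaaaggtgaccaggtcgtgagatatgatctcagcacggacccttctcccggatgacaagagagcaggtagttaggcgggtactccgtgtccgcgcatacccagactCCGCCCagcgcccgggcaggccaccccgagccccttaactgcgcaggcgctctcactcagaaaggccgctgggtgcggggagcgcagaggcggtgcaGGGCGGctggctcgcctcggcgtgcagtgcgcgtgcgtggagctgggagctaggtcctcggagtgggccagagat
RAD18: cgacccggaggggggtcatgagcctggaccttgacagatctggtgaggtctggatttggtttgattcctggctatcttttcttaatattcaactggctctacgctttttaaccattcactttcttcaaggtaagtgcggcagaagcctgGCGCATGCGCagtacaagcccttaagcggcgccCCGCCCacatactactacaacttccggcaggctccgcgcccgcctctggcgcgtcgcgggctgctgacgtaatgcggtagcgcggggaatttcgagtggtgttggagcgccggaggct
ERCC6: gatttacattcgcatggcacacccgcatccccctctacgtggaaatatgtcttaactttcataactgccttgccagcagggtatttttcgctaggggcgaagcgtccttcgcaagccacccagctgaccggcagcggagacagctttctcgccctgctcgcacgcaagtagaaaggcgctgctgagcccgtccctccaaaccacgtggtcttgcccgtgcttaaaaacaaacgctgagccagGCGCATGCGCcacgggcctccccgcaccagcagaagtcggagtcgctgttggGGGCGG
UVSSA: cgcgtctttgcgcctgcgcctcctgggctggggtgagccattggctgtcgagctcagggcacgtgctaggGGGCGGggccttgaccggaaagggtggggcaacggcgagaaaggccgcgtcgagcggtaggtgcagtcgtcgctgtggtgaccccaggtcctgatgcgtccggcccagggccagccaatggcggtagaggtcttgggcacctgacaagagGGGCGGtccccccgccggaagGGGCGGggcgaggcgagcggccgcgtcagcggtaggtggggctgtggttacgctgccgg
The windows are chr9:97697291-97697590 (minus strand) for XPA, chr3:8963423-8963722 (minus strand) for RAD18, chr10:49539072-49539371 (minus strand) for ERCC6 and chr4:1346958-1347257 (plus strand) for UVSSA. The gene models of RAD18 and ERCC6 begin further upstream, at 8963773 and 49539538, in the deposited table and in GENCODE 29. Both windows therefore lie inside those models. The UVSSA window lies inside the deposited model, which starts at 1345691, and before the GENCODE 29 start at 1347266. RAD18, at the higher end of the fold changes, and ERCC6, at the lower end, each held 1 NRF1 box and 1 GC box, XPA held 2 GC boxes and UVSSA 3. In the first windows of 36 members (UBE2B has no entry), the NRF1 box occurred in 3, which are RAD18, ERCC6 and MLH3, or 8.33%, against 1.36% of 27305 genes with a window. The GC box was in 29 (80.6%, against 44.6% of genes), CCAAT in 11 (30.6%, against 35.7%) and TATAAA in REV3L alone (2.78%, against 11.95%), each searched on both strands. The 27305 genes were not limited to the 13167 tested here, so these shares do not set the members against other expressed genes. These matches describe letters in a window and do not show that a factor binds there.

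Damage recognition in the whole genome had the highest median level of the groups, 45.0 FPKM, with only RAD23B, DDB1 and CETN2 as members. The sensor genes XPC and DDB2 are not among the members, so this level does not describe lesion sensing as a whole. RAD23B, which stabilises the lesion sensor and also shuttles ubiquitinated proteins to the proteasome, was at 71.1, 73.1 and 67.0 FPKM in sgPARP1 and at 66.7, 70.4 and 69.1 FPKM in WT. The groups overlapped, and the log2 fold change was 0.03 with a 95% interval of −0.07 to 0.14. DDB1, a subunit of the ultraviolet damage binding complex and the adaptor of CUL4 ubiquitin ligases, averaged 44.8 ± 2.30 FPKM in sgPARP1 and 45.2 ± 1.65 FPKM in WT (SD, n = 3 each). With 10171 to 12544 reads per library it is the deepest measured of the 37, and its interval was −0.13 to 0.10. CETN2, the centrin that sits in the sensor complex (chromosome X, 152826994 to 152830757 in hg38), was listed at 0 in all 6 libraries. None of the 75-base stretches of its mRNA occurs in another gene of GENCODE 29, and 10 of the 39 protein-coding genes within 1 Mb were also listed at 0, near the 23.9% of all protein-coding genes.

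At stalled RNA polymerase II, ERCC6 and UVSSA lay lower in sgPARP1 without passing the test. ERCC6, the ATPase that pushes on the stalled polymerase (ENSG00000225830, minus strand of chromosome 10, 49454168 to 49539538), was at 1.39, 1.65 and 1.41 FPKM in sgPARP1, against 1.69, 1.68 and 1.76 FPKM in WT. UVSSA, which helps bring TFIIH to the polymerase (ENSG00000163945, plus strand of chromosome 4, 1345691 to 1395989), was at 1.26, 1.32 and 1.22 FPKM in sgPARP1, against 1.64, 1.501 and 1.41 FPKM in WT. Every sgPARP1 library was thus below every WT library for both genes, by 13.2% and 16.2% of the mean. Limma gave log2 fold changes of −0.13 (adjusted p = 0.341) and −0.15 (adjusted p = 0.272). On the read scale, where low genes are not damped by the pseudocount, voom gave −0.22 (adjusted p = 0.0994) and −0.26 (adjusted p = 0.0579) over genes averaging 20 reads or more. Their intervals there, −0.39 to −0.04 and −0.45 to −0.08, lay below 0, with unadjusted p = 0.0192 and 0.00828.

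The other members of that group showed smaller differences. XAB2, a splicing factor that binds XPA, was at 36.4, 32.0 and 36.1 FPKM in sgPARP1 and at 37.2, 33.8 and 31.9 FPKM in WT, an overlap (log2 fold change 0.02, interval −0.15 to 0.20). ERCC8, the substrate receptor of the ubiquitin ligase that acts at the stalled polymerase, missed the test at 0.302, 0.341 and 0.375 FPKM in sgPARP1 and 0.348, 0.4001 and 0.316 FPKM in WT. Those values rest on 125 to 183 reads per library, since the gene length behind its FPKM is 26458 bases. Tested with voom among genes with a mean of at least 20 reads, ERCC8 gave a log2 fold change of −0.07 with an interval of −0.37 to 0.22 (adjusted p = 0.781). In that test 0 of 34 members were called, where 13.2% of all genes were, 5.39% higher and 7.8% lower.

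TFIIH was measured unevenly. Its helicase ERCC2, which opens the DNA around a lesion, was at 15.9, 16.0 and 16.3 FPKM in sgPARP1 and at 16.3, 15.0 and 15.3 FPKM in WT, and the translocase ERCC3 averaged 9.68 ± 0.0716 FPKM in sgPARP1 and 9.79 ± 0.0938 FPKM in WT. The groups overlapped for both, with log2 fold changes of 0.05 and −0.01 and intervals of −0.06 to 0.15 and −0.10 to 0.08. GTF2H3, a structural subunit, averaged 11.6 FPKM in sgPARP1 and 12.4 FPKM in WT (log2 fold change −0.09, adjusted p = 0.357). GTF2H5, the small subunit whose loss causes trichothiodystrophy, averaged 1.78 FPKM in sgPARP1 and 1.77 FPKM in WT (log2 fold change 0.00). GTF2H4 (chromosome 6, 30908207 to 30914106) was listed at 0 in all 6 libraries, as were 72 of the 89 protein-coding genes within 1 Mb of it. GTF2H2 had 1 to 5 reads per library, and 69.3% of the 75-base stretches of its mRNA also occur in other genes, chiefly its copies GTF2H2C and GTF2H2B, so its level is uncertain.

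In the kinase module of TFIIH, which phosphorylates RNA polymerase II, MNAT1 lay higher in sgPARP1. This assembly factor was at 6.59, 7.62 and 6.30 FPKM in sgPARP1, against 6.22, 6.09 and 5.57 FPKM in WT, so the groups did not overlap although the lowest sgPARP1 and the highest WT value almost touch. The log2 fold change was 0.17 with an interval of −0.01 to 0.35 (limma, adjusted p = 0.227), and it was 0.10 without sgPARP1 library 2. The cyclin CCNH averaged 4.79 ± 0.427 FPKM in sgPARP1 and 4.87 ± 0.618 FPKM in WT (log2 fold change −0.02). Of the 75-base stretches of its mRNA, 20.7% also occur in other genes.

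GTF2H1, CDK7 and UBE2A had the largest log2 fold changes of FPKM + 1 among the 33, and libraries of 1 group differed widely for each. For GTF2H1 the ratio of the mean FPKM was only 0.915. UBE2A, a ubiquitin-conjugating enzyme that works with RAD18 (ENSG00000077721, plus strand of chromosome X), was at 0.405, 4.91 and 5.68 FPKM in sgPARP1 and at 0.193, 5.49 and 0.388 FPKM in WT. It was thus high in sgPARP1 libraries 2 and 3 and in WT library 2, and low in the rest, with 454 to 587 reads in the high libraries and 20 to 38 in the low ones. The core TFIIH subunit GTF2H1 was at 0.285, 1.72 and 5.997 FPKM in sgPARP1 and at 1.66, 3.43 and 3.66 FPKM in WT, its lowest and its highest library both being sgPARP1. CDK7, the kinase itself, was at 0.212, 2.53 and 0.288 FPKM in sgPARP1 and at 0.264, 0.120 and 0.137 FPKM in WT, and 94 of its reads lie in sgPARP1 library 2 alone, against 5 to 12 in each other library. A spread of at least 5-fold within a group, with at least 1 FPKM in the highest library, occurred in 3 of 33 tested members (9.09%) and in 3.49% of all genes tested. CDK7 averaged 0.591 FPKM over the 6 libraries and met the filter at 0.5 FPKM through sgPARP1 library 2 alone. Its place among the tested genes and in this count therefore rests on that library.

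The comparison of the groups is loose for these genes. The log2 fold changes were 0.79 for UBE2A, −0.39 for GTF2H1 and 0.59 for CDK7, with intervals of −1.16 to 2.74, −1.77 to 0.99 and −0.35 to 1.53. Without 1 library or with another scale, they ranged from 0.35 to 1.57 for UBE2A, from −1.02 to 0.20 for GTF2H1 and from 0.09 to 1.61 for CDK7. Of the 75-base stretches of their mRNAs, 0%, 0.516% and 1.61% occur in other genes. The deposited gene model of UBE2A spans 116282 bases, against 16617 bases in GENCODE 29. Both end at base 119591083, and the deposited one starts earlier, at 119474802 against 119574467. Among its neighbours, STEEP1 had 631 to 701 reads per library. NKRF had 70 reads in WT library 3 and 2 to 11 in each other library. Whether the gene model or these neighbours have a part in the swings was not tested.

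**Figure D2:**
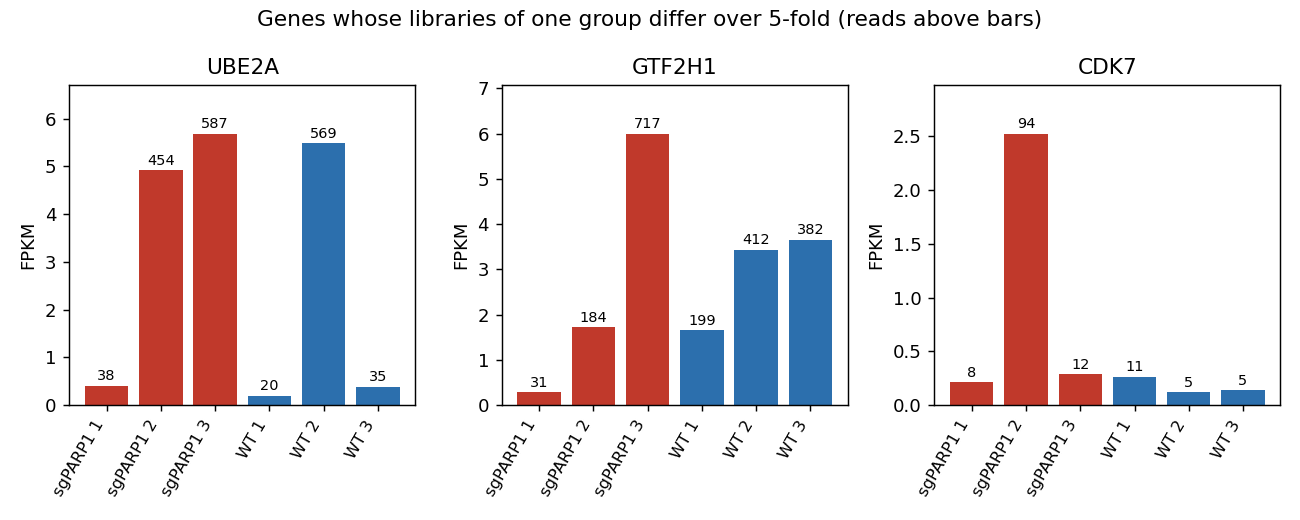
FPKM of UBE2A, GTF2H1 and CDK7 in each library, sgPARP1 in red and WT in blue, with the number of reads above each bar. UBE2A is high in 3 libraries of both groups, GTF2H1 is both lowest and highest in sgPARP1, and CDK7 is high in sgPARP1 library 2 alone.

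XPA, the scaffold that verifies a lesion before incision, showed the largest difference among members with steady libraries. The gene (ENSG00000136936, minus strand of chromosome 9, 97674909 to 97697340) was at 9.43, 8.33 and 8.21 FPKM in sgPARP1, against 5.71, 6.98 and 7.64 FPKM in WT. Every sgPARP1 library was above every WT library, a 1.28-fold higher mean from 179 to 268 reads per library. Limma put the log2 fold change at 0.32, standard error 0.10 (unadjusted p = 0.0170, adjusted p = 0.112, n = 3 each), so the difference did not pass. Over the alternatives tried its log2 fold change ran from 0.22 to 0.40 and its adjusted p from 0.0618 to 0.272.

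The genes of the incision nucleases had overlapping groups. ERCC1, the non-catalytic partner of the upstream cut, averaged 7.17 ± 0.517 FPKM in sgPARP1 and 6.74 ± 0.0462 FPKM in WT (log2 fold change 0.08, interval −0.06 to 0.21). ERCC4, which makes that cut, averaged 1.44 ± 0.0560 FPKM in sgPARP1 and 1.33 ± 0.113 FPKM in WT (log2 fold change 0.06). ERCC5, the nuclease of the downstream cut, was at 0.411, 0.605 and 0.652 FPKM in sgPARP1 and at 0.629, 0.597 and 0.655 FPKM in WT, with sgPARP1 library 1 alone lower. Of the 75-base stretches of its mRNA, 99.9% also occur in other genes, chiefly the read-through gene BIVM-ERCC5, which was listed at 0 in all 6 libraries. The level of ERCC5, from 71 to 124 reads per library, is therefore uncertain.

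Mismatch repair genes differed little, with log2 fold changes from −0.04 to 0.10. MSH6, which forms the sensor of single mismatches (ENSG00000116062, plus strand of chromosome 2, 47695530 to 47810063), was at 11.1, 10.8 and 10.7 FPKM in sgPARP1, against 9.77, 10.3 and 10.3 FPKM in WT. The groups did not overlap, but the means differ by 1.07-fold only, and the interval of the log2 fold change was −0.01 to 0.20 (limma, adjusted p = 0.227). Its deposited model overlaps FBXO11 on the other strand, and 20.3% of the 75-base stretches of its mRNA occur in other genes, chiefly that one. MSH3, which serves larger loops, averaged 7.23 ± 0.871 FPKM in sgPARP1 and 6.90 ± 0.171 FPKM in WT.

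The MutL proteins, which act after the sensors, stayed within 0.08 on the log2 scale. PMS2, the endonuclease of the main complex, averaged 3.93 ± 0.183 FPKM in sgPARP1 and 3.67 ± 0.190 FPKM in WT, and 23.05% of its 75-base stretches occur in other genes, chiefly the pseudogenes PMS2CL and PMS2P9, so its level is uncertain. PMS1 was at 3.48, 3.62 and 3.65 FPKM in sgPARP1, against 3.67, 3.78 and 3.71 FPKM in WT, lower in every sgPARP1 library yet by 3.54% of the mean (log2 fold change −0.04, adjusted p = 0.667). MLH3, known for its part in meiotic crossovers, averaged 4.82 ± 0.171 FPKM in sgPARP1 and 4.997 ± 0.125 FPKM in WT (log2 fold change −0.04).

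In the translesion group the order of the differences depended on 1 library. REV3L, the catalytic subunit of polymerase zeta, was at 5.10, 6.43 and 4.72 FPKM in sgPARP1 and at 4.31, 4.54 and 4.83 FPKM in WT. The groups overlapped, since sgPARP1 library 3 lay below WT library 3, and the log2 fold change was 0.20 with an interval of −0.04 to 0.44 (limma, adjusted p = 0.290). Without sgPARP1 library 2 the log2 fold change was 0.09 for REV3L and 0.22 for PRIMPOL, against 0.20 and 0.12 with it. Its accessory subunit MAD2L2, which also serves the mitotic checkpoint and end protection, was at 13.1, 13.5 and 14.2 FPKM in sgPARP1 and at 15.6, 14.3 and 13.1 FPKM in WT (log2 fold change −0.07). The subunits of this polymerase thus stood on opposite sides of 0, and in limma both intervals included 0. In the voom fit quoted above for ERCC6 and UVSSA, the interval of REV3L, 0.0065 to 0.452, lay above 0. Its unadjusted p there was 0.0446 and its adjusted p 0.170, so REV3L did not pass. The interval of MAD2L2 in that fit, −0.230 to 0.0624, included 0.

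The remaining polymerases were lower in level and had overlapping groups. REV1, the scaffold on which translesion polymerases exchange, averaged 2.91 ± 0.169 FPKM in sgPARP1 and 3.04 ± 0.0502 FPKM in WT. POLI averaged 1.93 FPKM in sgPARP1 and 1.997 FPKM in WT, and POLK 1.15 FPKM in sgPARP1 and 1.22 FPKM in WT, both of them polymerases that copy damaged bases (log2 fold changes −0.03 and −0.05). PRIMPOL, the enzyme that restarts synthesis beyond a lesion, was at 1.81, 1.37 and 2.02 FPKM in sgPARP1 and at 1.47, 1.47 and 1.55 FPKM in WT, from 59 to 97 reads, and its interval was −0.12 to 0.36.

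Among the genes that place ubiquitin on PCNA, RAD18 came nearest to the threshold. This ubiquitin ligase, which modifies PCNA at stalled forks (ENSG00000070950, minus strand of chromosome 3, 8775402 to 8963773), was at 7.94, 7.68 and 7.40 FPKM in sgPARP1, against 6.73, 6.77 and 6.74 FPKM in WT. All sgPARP1 libraries lay above the narrow WT range, a 1.14-fold higher mean. Limma put the log2 fold change at 0.16, standard error 0.044 (unadjusted p = 0.0081, adjusted p = 0.0752, n = 3 each), and over the alternatives its adjusted p ran from 0.0568 to 0.226.

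Its partners did not pass the test either. UBE2B, the conjugating enzyme closely related to UBE2A, was at 13.5, 14.5 and 14.2 FPKM in sgPARP1 and at 11.9, 14.2 and 13.9 FPKM in WT, steady where UBE2A swung (log2 fold change 0.08, interval −0.09 to 0.24). HLTF, a ligase that extends the ubiquitin chain, was at 10.01, 11.96 and 10.5 FPKM in sgPARP1 and at 11.4, 13.0 and 11.8 FPKM in WT (log2 fold change −0.15, adjusted p = 0.300). SHPRH, the related ligase, averaged 0.798 ± 0.0354 FPKM in sgPARP1 and 0.781 ± 0.0848 FPKM in WT (log2 fold change 0.01).

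**Figure D3:**
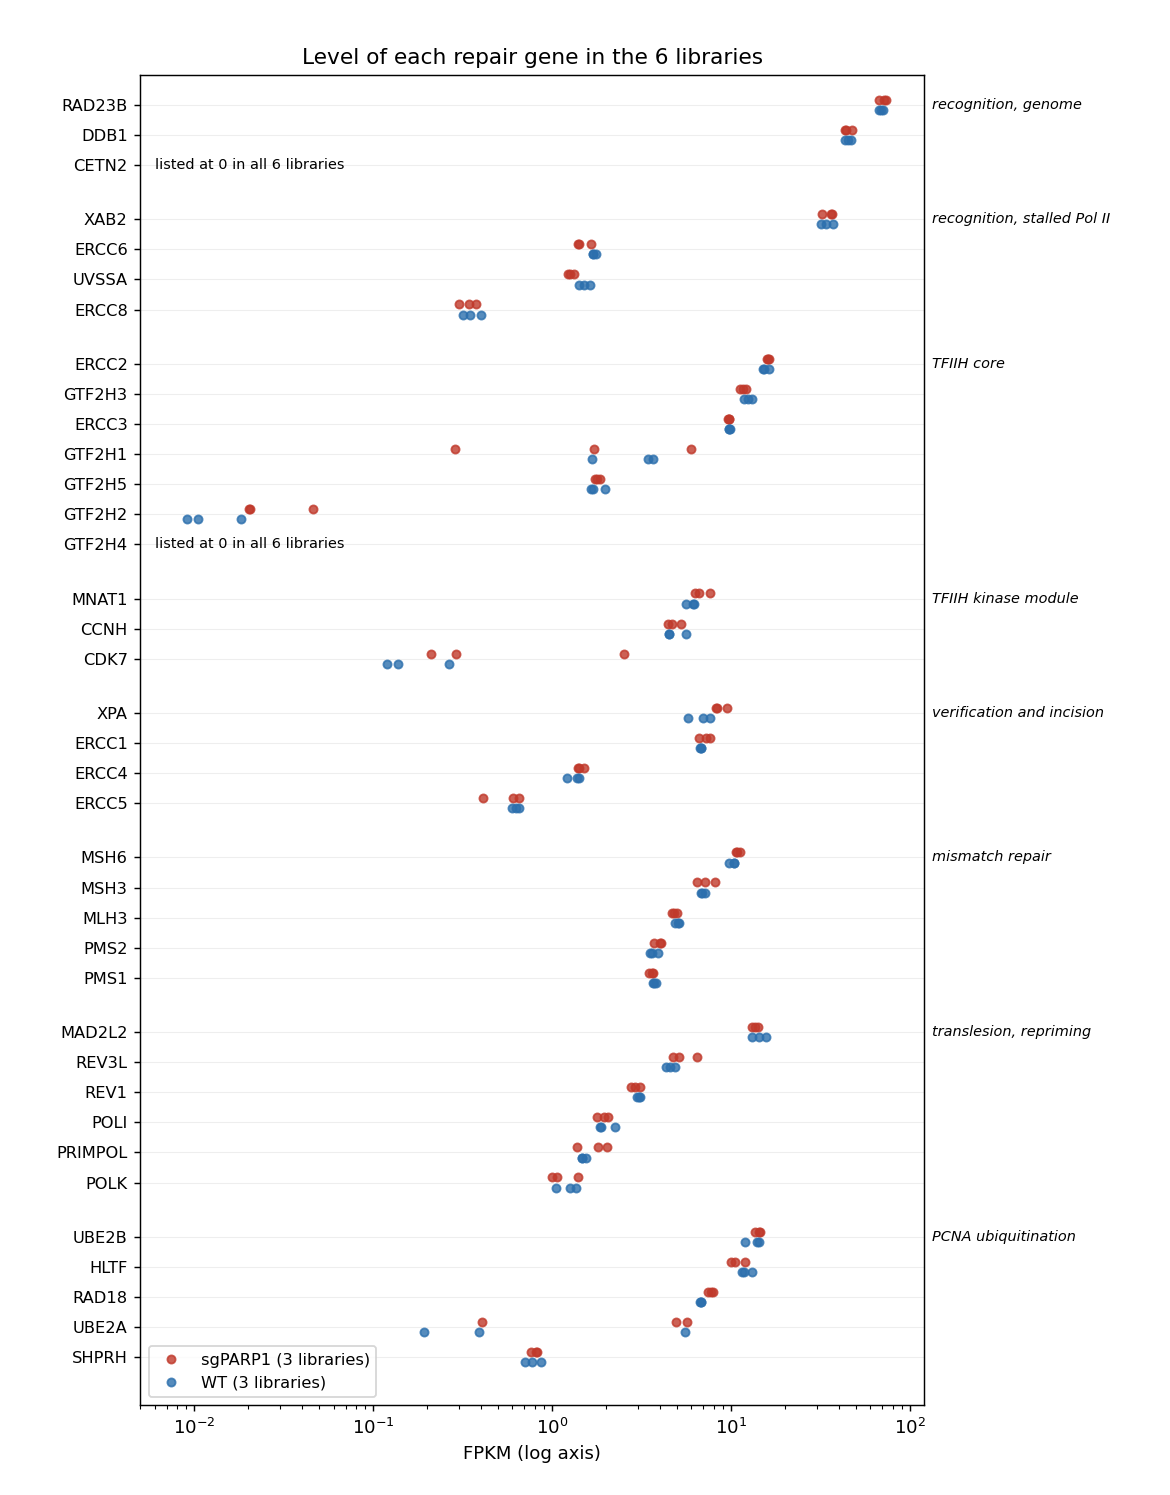
FPKM of each of the 37 repair genes in every library on a log axis, sgPARP1 (red) above WT (blue), grouped by role and ordered by mean level. RAD23B, DDB1 and XAB2 lie highest, most genes have overlapping groups, and CETN2 and GTF2H4 are listed at 0.

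Levels between the genes depend on the length used. The deposited gene lengths exceed the length of 1 mRNA, the GENCODE 29 basic transcript with the longest coding sequence, by a median of 1.68 times, and by at least 2 times in 15 of the 37. On the deposited FPKM scale the order ran RAD23B (69.6), DDB1 (45.0), XAB2 (34.6), ERCC2 (15.8) and MAD2L2 (13.97), as means over 6 libraries. Rescaled to the length of that mRNA it ran DDB1 (155), RAD23B (78.2), MAD2L2 (76.0), XAB2 (60.5) and ERCC1 (30.5). ERCC8 shifted most, at 0.347 FPKM on the deposited scale and 4.57 on the mRNA scale, because its deposited length is 13.1 times its mRNA. Within a gene the length is the same in every library, so the comparison of sgPARP1 with WT on the read scale does not depend on it, whereas the filter at 0.5 FPKM and the pseudocount do.

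**Figure D4:**
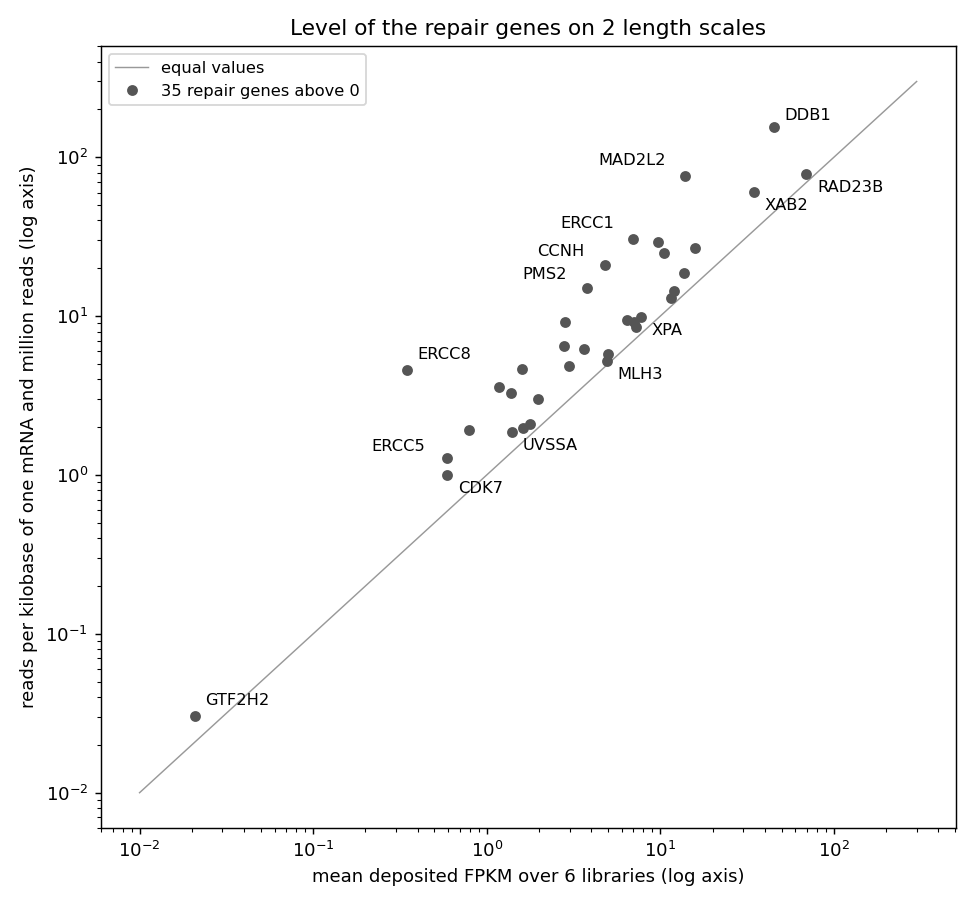
Mean level of the 35 repair genes above 0 over 6 libraries: deposited FPKM on the horizontal axis and the same reads rescaled to the length of 1 mRNA on the vertical axis, both log axes, with the line of equal values. ERCC8, MAD2L2 and ERCC1 lie far above the line, while XPA and MLH3 lie close to it.

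Genes that work beside the 37, mostly shared with DNA replication, were read from the same fit. Of 32 such partners, all tested, 3 were called higher and none lower. That is 9.38% called higher, against 3.52% of all genes tested called higher and 7.96% called in either direction. At an unadjusted p under 0.05 there were 9 higher and none lower. Of all genes, 24.4% had such a p, 12.1% higher and 12.3% lower. POLE3, a histone-fold subunit of polymerase epsilon, rose to 63.7, 66.6 and 64.0 FPKM in sgPARP1, against 53.0, 56.3 and 53.6 FPKM in WT (limma, adjusted p = 0.0129). RPA2, a subunit of the protein that coats single-stranded DNA, rose to 43.8, 41.7 and 46.4 FPKM in sgPARP1, against 38.2, 37.3 and 35.9 FPKM in WT (adjusted p = 0.0335). RFC1, the large subunit of the loader that places PCNA on DNA, rose to 17.2, 17.6 and 16.9 FPKM in sgPARP1, against 14.5, 15.2 and 14.7 FPKM in WT (adjusted p = 0.0265). The median log2 fold change of the 32 was 0.10, against 0.01 for the 33 tested repair genes. PCNA itself, at a log2 fold change of 0.13, did not pass (adjusted p = 0.0644).

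Some proliferation markers also rose. Of 8, CCNB1, CCNA2 and RRM2 rose and none fell, with log2 fold changes of 0.23, 0.19 and 0.29 (limma, adjusted p = 0.0070, 0.0490 and 0.0134), which is 37.5% of the 8 against 3.52% of all genes tested called higher. The other 5 did not pass, with MCM5 at −0.01, MCM2 at 0.04, TOP2A at 0.08, CDK1 at 0.14 and MKI67 at 0.18. The 8 summed to 504 to 521 FPKM in sgPARP1 and 462 to 464 FPKM in WT. Their part in the partner genes was not tested. In bulk RNA, a change in the share of cycling cells and a change of RNA per cell cannot be told apart.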

How the data were processed

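Per the labels' protocols, the 6 libraries (3 sgPARP1, 3 WT) were made with an mRNA kit. The authors deposited FPKM values per gene, with Ensembl IDs, symbols, coordinates and gene lengths in bases. The submitters' processing notes list hg38, GRCm38 and mm10 as builds, without saying what each was for. Aligner, counter and strand setting: not given in the sources used here. Reads of a gene and of an overlapping gene on the other strand therefore cannot be told apart. GENCODE 29 basic holds 58206 of the gene IDs, 99.9% of them at an overlapping position, so coordinates are given as hg38.

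The product of FPKM and gene length moved in equal steps within a library, and 100% of values of up to 200 steps were whole to within 0.02, so reads per gene could be recovered. Precision follows these reads. Values were tested as log2(FPKM + 1), pseudocount 1, for genes averaging 0.5 FPKM or more, with limma 3.58.1 (R 4.3.3), moderated with a trend, and Benjamini-Hochberg adjustment at 0.05 over all genes. The script was tested on simulated data. Alternatives were other pseudocounts and filters, TPM, median centring, voom on the recovered reads, leaving out each library and a replicate block. Sharing of 75-base stretches was computed on both strands against GENCODE 29 transcripts, a length chosen without knowing the reads' own.

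The members and lists were chosen with earlier results of these data known. All 37 members are named. Values in every library are given for the most abundant and the most changed member of each of 8 roles. ERCC5, ERCC6, ERCC8, PMS1, PRIMPOL, RAD18 and HLTF are also given by library, chosen after their values were seen. Of the partners, those past the test are named, and PCNA was added after its values were seen.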

Additional observations from a re-analysis of the deposited data

How the results depend on the processing

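The count of 0 called members, higher or lower, held in all 15 alternatives fitted, the smallest adjusted p of a member being 0.0568, for RAD18 with median centring. The median log2 fold change of the tested members ranged from 0.00192 to 0.0501, and was 0.00969 without UBE2A, GTF2H1 and CDK7, an alternative chosen after seeing the data. Of 477 values of single members, 463 moved by less than their spread between libraries and 14 by more, among them those of UVSSA, ERCC6, ERCC5 and CDK7 with voom. PARP1 passed in every alternative. The count of genes called over the whole table was 1048, and it depends on the processing: 587 when every gene was kept, 1669 with voom at a mean of at least 20 reads (an alternative chosen after seeing the data) and 412 to 652 when 1 library was left out, with 412 without WT replicate 2 and 419 without sgPARP1 replicate 1. With a replicate block the count was 550 and no member was called. Same-numbered libraries did not deviate together (correlations 0.041, 0.081 and −0.026, 3 of 6 libraries correlating best with their own number), so the numbers were not taken to pair the samples. Of the members above 0, CDK7, GTF2H2 and PRIMPOL had the fewest reads on average, with 5 to 94, 1 to 5 and 59 to 97 per library. In their lowest libraries UBE2A and GTF2H1 had 20 and 31 reads. CETN2 and GTF2H4 had 0 in all 6 libraries.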

Other observations

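Genes around the members gave medians close to 0. The median log2 fold change of the tested genes within 5 Mb of a member ranged from −0.06, around ERCC2, to 0.08, around GTF2H5. It was 0.04 around XPA (64 genes), 0.02 around RAD18 (54 genes), 0.07 around ERCC6 (35 genes) and 0.03 around UVSSA (55 genes), so the surroundings of ERCC6 and UVSSA lay on the other side of 0 from these genes.

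Some members share mRNA sequence with a neighbour. TKFC, the gene sharing most with DDB1 (1.13% of whose 75-base stretches occur elsewhere), was at 5.41, 5.29 and 6.0 FPKM in sgPARP1 and at 6.84, 6.09 and 5.87 FPKM in WT (log2 fold change −0.15, limma adjusted p = 0.265). VARS2, the gene sharing most with GTF2H4 (92.1%), was listed at 0 in all 6 libraries, as GTF2H4 was.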
